A study of Mus musculus with 10 samples.

Results

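The 10 genes described here are the 3 Gadd45 genes (Gadd45a, Gadd45b and Gadd45g), the tumour suppressor gene Trp53, its regulator Mdm2, the p53 target genes Ccng1 and Sesn1, the cyclin-dependent kinase (CDK) inhibitor genes Cdkn1a and Cdkn1b, and the cyclin gene Ccnd1. They were picked by symbol from the 24421 genes listed in the count table, and all 10 were among the 11092 genes with enough counts to be tested. Hepatic poly(A) RNA of 10 wild type male C57BL/6 mice, 21 weeks of age and fed ad lib, was sequenced. The Chow group (n = 5) ate standard chow alone, and the TM5614 group (n = 5) ate the same kind of chow with TM5614 mixed into it, at 20 mg/kg/day for 10 days. TM5614 inhibits plasminogen activator inhibitor-1 (PAI-1), a secreted inhibitor of the plasminogen activators, and is a small molecule that can be taken by mouth. Each library came from the whole liver RNA of 1 mouse, and the study describes the controls as littermates of matched age.

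p53, the product of Trp53, is a transcription factor that is held at a low level by Mdm2, a ubiquitin ligase whose own gene is a p53 target. Upon DNA damage and other stress p53 is stabilised and switches on genes that halt the cell cycle, among them Cdkn1a, which encodes p21. The Gadd45 proteins are small stress sensors that bind p21, PCNA and the kinase MEKK4, which acts upstream of the p38 and JNK kinases. The Gadd45 genes and Cdkn1a are also controlled by signals that do not need p53, and in adult liver, where few hepatocytes divide, they are known for responses to feeding state, growth signals and injury.

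Total counts ranged from 6398335 to 10874955 per library. The defining markers of hepatocytes were high in every library, with a summed level of 123000 to 143000 CPM (counts per 1e6 counts, with libraries scaled by TMM) in the Chow group and of 111000 to 129000 CPM in TM5614 mice. Replicate 2 of the TM5614 group stood apart, with a summed level of 18 skeletal muscle genes of 5030 CPM, against at most 89.9 CPM in the other TM5614 libraries and 0.97 to 1.64 CPM in the Chow group, where 8 of the 18 genes were at 0 in all libraries. Replicate 2 of the Chow group also stood apart. A curve on GC content and gene length was fitted to the deviations of genes from their means over all 10 libraries. It accounted for 45.0% of the deviation of that library and for 0.445% to 16.7% of that of each remaining one. These deviations include the difference between the groups. Where leaving out replicate 2 of either group moved the log2 fold change of one of the 10 genes by over 1.5 times, the value without it is given.

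The sequences upstream of the transcription start are shown for Gadd45g and Cdkn1a, the genes of this set with the largest differences between the groups, and for Gadd45b, whose difference was next in size. Each is the run of 250 bases that ends just before the start that RefSeq gives, which for Gadd45b and Cdkn1a lies a few bases inside the gene as GENCODE places it (coordinates below), 5′ to 3′ on the plus strand of GRCm38.p6, from RefSeq. Capitals mark an E-box (CACGTG, the sequence bound by CLOCK and BMAL1, the product of Arntl, as well as by MYC and USF proteins), a TATA box (TATAAA) or a p53 half-site, 10 bases that fit the p53 consensus.
Gadd45g, chr13:51846425-51846674: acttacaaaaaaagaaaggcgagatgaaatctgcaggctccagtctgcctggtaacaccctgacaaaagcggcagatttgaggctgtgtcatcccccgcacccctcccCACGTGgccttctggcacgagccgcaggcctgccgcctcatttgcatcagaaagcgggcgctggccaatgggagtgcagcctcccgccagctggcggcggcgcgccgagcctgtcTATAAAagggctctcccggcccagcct
Gadd45b, chr10:80929841-80930090: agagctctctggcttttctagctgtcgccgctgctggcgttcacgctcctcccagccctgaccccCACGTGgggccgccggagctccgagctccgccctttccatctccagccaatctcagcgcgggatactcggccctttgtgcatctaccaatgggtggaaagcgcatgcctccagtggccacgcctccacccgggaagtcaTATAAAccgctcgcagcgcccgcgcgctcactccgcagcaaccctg
Cdkn1a, chr17:29090729-29090978: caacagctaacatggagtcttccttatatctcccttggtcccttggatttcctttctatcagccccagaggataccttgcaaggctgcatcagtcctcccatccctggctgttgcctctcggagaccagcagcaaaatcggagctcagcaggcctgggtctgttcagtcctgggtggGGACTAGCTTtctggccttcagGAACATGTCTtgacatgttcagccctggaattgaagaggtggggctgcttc
Counted to the first base of the motif, the Gadd45g window held CACGTG at 142 bases and TATAAA at 27 bases upstream of the start, and the Gadd45b window held CACGTG at 185 bases and TATAAA at 46 bases upstream. The Cdkn1a window held neither but had p53 half-sites at 73 and 51 bases upstream. RefSeq also gives a Cdkn1a start further downstream, and its window, chr17:29093519-29093768, had none of these motifs. The half-sites thus lie just before the more upstream start alone. Which start was used in these livers was not tested. RefSeq promoter windows were found for 9 of the 10 genes, 11 windows in all. Searched on both strands over the full windows of 300 bases, which run 50 bases past the start, a p53 half-site was found in 6 of the 11 windows and in 8.36% of all 32851 promoters. CACGTG was found in 3 of the 11 and in 7.15% of all, TATAAA in 3 of the 11 and in 13.6% of all (for both motifs the third window was that of Trp53), and CCAAT in 9 of the 11 and in 37.4% of all. Windows of Gadd45a, Trp53, Mdm2, Ccng1, Sesn1 and Cdkn1a held the p53 half-sites, whereas those of Gadd45b, Gadd45g and Cdkn1b held none. A match is a stretch of letters and does not show binding.

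The comparison asked how the liver levels of these genes differed between mice given TM5614 and mice on chow alone. Gadd45g and Cdkn1a were higher in the TM5614 group in every library, by 5.85-fold and 5.49-fold in mean CPM. The other 8 genes overlapped between the groups, and the largest differences among them were a higher mean of Gadd45b and a lower mean of Gadd45a. Trp53 itself differed least of the 10 with all libraries in the fit, and Ccng1 did without the 2 libraries that stood apart. In the edgeR fit across all 11092 genes, 2 of the 10 passed an adjusted p of 0.05, both higher, where 4.50% of all genes tested passed, 1.73% higher and 2.77% lower (192 and 307 genes). The CPM of the groups did not overlap for the same 2 of the 10 genes and for 8.93% of all genes tested, of which 4.07% were higher and 4.87% lower. The genes were chosen with the results of this comparison known, so these counts and the fold changes below describe the genes and test nothing about the set. Log2 fold changes are given with the standard error of the fit, and their median over all genes tested was 0.01.

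**Figure D1:**
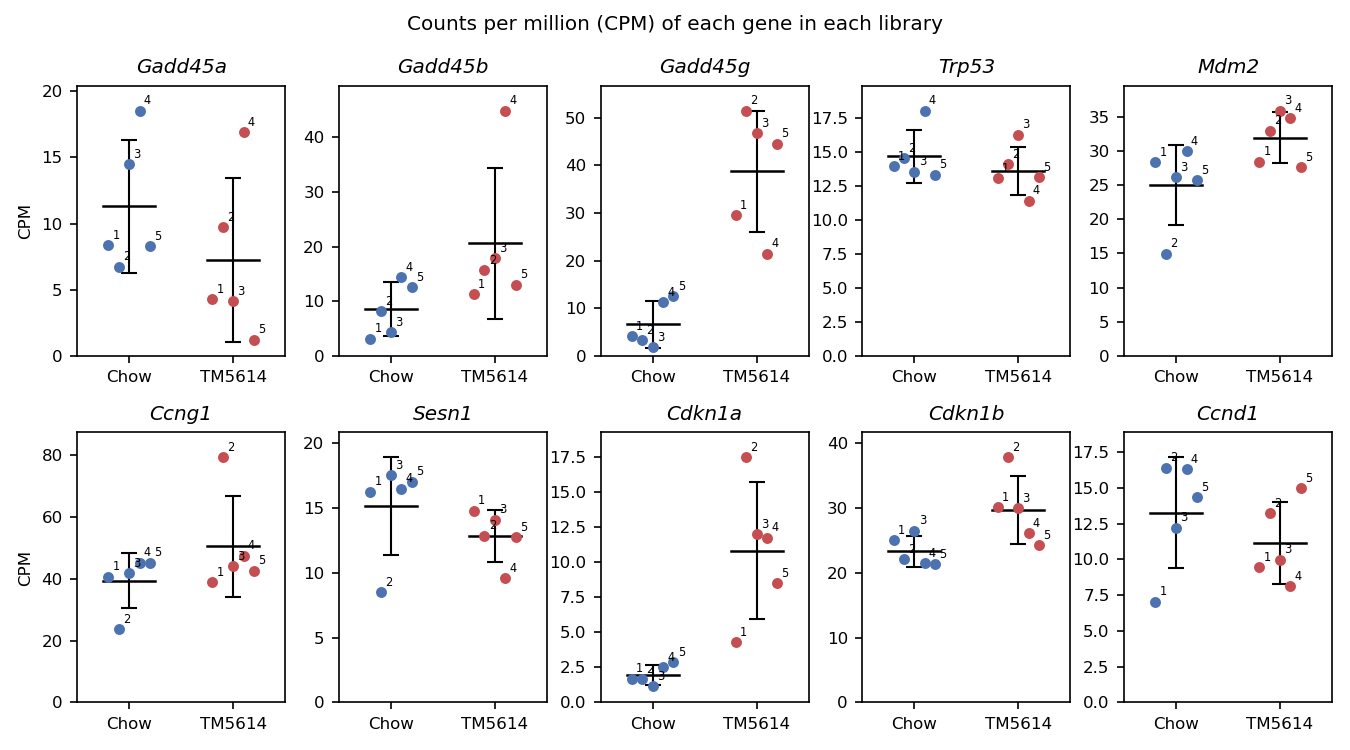
CPM of the 10 genes in each of the 5 Chow (blue) and 5 TM5614 (red) libraries, numbered by replicate, on linear axes that start at 0. Black lines are the mean ± SD of each group. The groups are apart for Gadd45g and Cdkn1a, at 1.77 to 12.6 against 21.5 to 51.5 CPM and at 1.15 to 2.85 against 4.31 to 17.5 CPM, and overlap for the other 8 genes.

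Gadd45g, on chromosome 13 (51846678 to 51848468, plus strand, GRCm38), had 4.12, 3.38, 1.77, 11.2 and 12.6 CPM in Chow replicates 1 to 5. It had 29.6, 51.5, 46.8, 21.5 and 44.6 CPM in TM5614 replicates 1 to 5. Each TM5614 library thus exceeded each Chow library, with Chow replicates 4 and 5 the highest of the controls and TM5614 replicate 4 the lowest of the treated mice. The means were 6.63 ± 4.94 CPM (SD, n = 5) and 38.8 ± 12.7 CPM (SD, n = 5), and the log2 fold change was 2.56 ± 0.46 (SE). By size of the log2 fold change in either direction Gadd45g ranked 23rd of 11092 genes. The values rest on 17 to 137 counts per Chow library and 188 to 434 counts per TM5614 library. Without TM5614 replicate 2, the library with muscle transcripts, the mean of that group was 35.6 ± 12.1 CPM (SD, n = 4). In bulk samples such as these, a change in the number of cells of a type and a change in the RNA per cell cannot be told apart.

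Gadd45b, on chromosome 10 (80930073 to 80932204, plus strand), encodes a family member known for its rise in regenerating liver. Its levels were 3.15, 8.20, 4.39, 14.4 and 12.6 CPM in Chow replicates 1 to 5. In TM5614 replicates 1 to 5 they were 11.3, 15.7, 17.9, 44.9 and 13.0 CPM. The groups overlapped, since Chow replicates 4 and 5 were above TM5614 replicate 1, and TM5614 replicate 4 was far above all other libraries. The means were 8.55 ± 4.94 CPM (SD, n = 5) and 20.6 ± 13.8 CPM (SD, n = 5), with a log2 fold change of 1.28 ± 0.46 (SE), which did not pass the threshold. Without TM5614 replicate 4 the log2 fold change was 0.77.

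Gadd45a, on chromosome 6 (67035096 to 67037457, minus strand), is the family member whose induction by DNA damage runs through p53. Levels of 8.37, 6.75, 14.5, 18.5 and 8.28 CPM were measured in Chow replicates 1 to 5. The TM5614 libraries held 4.31, 9.73, 4.13, 16.9 and 1.23 CPM in the same order of replicate number. TM5614 replicates 1, 3 and 5 lay below every Chow library, and replicates 2 and 4 lay within the Chow range. The means were 11.3 ± 5.03 CPM (SD, n = 5) and 7.26 ± 6.21 CPM (SD, n = 5), and the log2 fold change was -0.62 ± 0.53 (SE), short of the threshold. It was -1.22 without TM5614 replicate 4, -0.34 without TM5614 replicate 5 and -0.39 without Chow replicate 4. Of the 1764 exonic bases of Gadd45a, 337 overlap exons of E230016M11Rik on the other strand, and since the use of strand in counting is not given, reads there could belong to either gene.

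Levels of different genes were compared as FPKM, which takes gene length into account. The summed FPKM of the 3 Gadd45 genes was 13.0, 14.9, 16.8, 36.3 and 28.0 in Chow replicates 1 to 5 and 39.4, 66.1, 60.1, 68.6 and 52.0 in TM5614 replicates 1 to 5. Each TM5614 library was thus above each Chow library in the sum. The make-up of the sum differed as well. Gadd45g held 29.0%, 20.7%, 9.69%, 28.2% and 41.1% of the summed FPKM in Chow replicates 1 to 5, and 68.7%, 70.1%, 71.2%, 28.8% and 78.5% in TM5614 replicates 1 to 5. In 4 of the 5 TM5614 libraries Gadd45g thus made up most of the family, whereas in TM5614 replicate 4, the library with the lowest Gadd45g and the highest Gadd45a and Gadd45b of its group, Gadd45b held 51.3%. Gadd45a held 23.8% to 69.9% of the sum in Chow mice and 1.91% to 20.0% in TM5614 mice. The ratio of Gadd45g to Gadd45a in CPM ran from 0.122 to 1.52 in Chow mice and from 1.27 to 36.2 in TM5614 mice, so that this ratio overlapped between the groups through Chow replicate 5 and TM5614 replicate 4 alone.

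**Figure D2:**
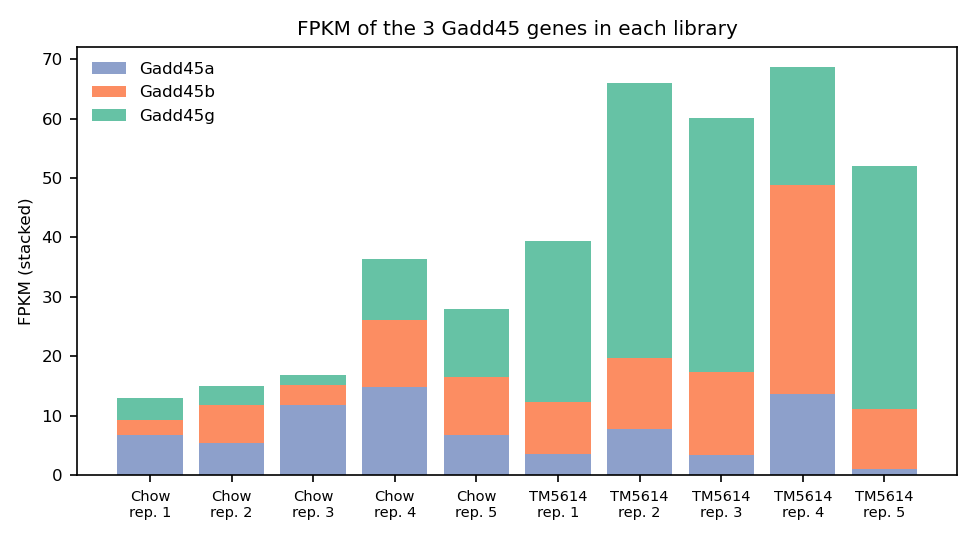
FPKM of Gadd45a, Gadd45b and Gadd45g, stacked, in each of the 10 libraries, on a linear axis that starts at 0. The height of a bar is the summed FPKM, 13.0 to 36.3 in Chow mice and 39.4 to 68.6 in TM5614 mice, and Gadd45b rather than Gadd45g is the largest piece in TM5614 replicate 4.

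The genes of the p53 loop differed little. Trp53, on chromosome 11 (69580359 to 69591873, plus strand), had 13.9, 14.6, 13.6, 18.1 and 13.3 CPM in Chow replicates 1 to 5 and 13.1, 14.1, 16.3, 11.4 and 13.1 CPM in TM5614 replicates 1 to 5. The groups overlapped through most of their range, and the log2 fold change was -0.11 ± 0.14 (SE), and from -0.18 to -0.03 with any 1 library left out. Mdm2, on chromosome 10 (117688875 to 117710758, minus strand), had 15 to 29.9 CPM in Chow mice and 27.6 to 35.9 CPM in TM5614 mice. Chow replicate 2 was the low library, at 15 CPM, and the other 4 Chow libraries lay between 25.7 and 29.9 CPM. The means of Mdm2 were 25 ± 5.89 CPM (SD, n = 5) and 31.9 ± 3.73 CPM (SD, n = 5), with a log2 fold change of 0.35 ± 0.17 (SE), which did not pass the threshold. Without Chow replicate 2 it was 0.21.

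Ccng1, on chromosome 11 (40748552 to 40755311, minus strand), encodes cyclin G1, which recruits the phosphatase PP2A to Mdm2. It had 40.6, 23.7, 41.8, 45.2 and 45.2 CPM in Chow replicates 1 to 5 and 38.9, 79.3, 44.0, 47.4 and 42.6 CPM in TM5614 replicates 1 to 5. The lowest and the highest of the 10 values were the libraries that stood apart, Chow replicate 2 and TM5614 replicate 2, and the other 8 lay between 38.9 and 47.4 CPM. The log2 fold change was 0.36 ± 0.22 (SE) with all libraries, 0.21 without Chow replicate 2, 0.14 without TM5614 replicate 2 and 0.0011 without both. With the trend on GC content and gene length removed, Ccng1 in Chow replicate 2 was 42.4 CPM, and the log2 fold change was 0.13. Sesn1, on chromosome 10 (41809935 to 41908424, plus strand), encodes sestrin 1, which restrains mTORC1 signalling under stress. Its range was 8.49 to 17.5 CPM in Chow mice and 9.60 to 14.8 CPM in TM5614 mice, with Chow replicate 2 again the lowest library, and its log2 fold change was -0.24 ± 0.20 (SE), also short of the threshold. Without Chow replicate 2 it was -0.40 and without TM5614 replicate 4 it was -0.15. With the weights that limma-voom gives to libraries it was -0.41 and passed, but only at the edge of the threshold. Over all genes limma-voom called 1386, against 499 in edgeR.

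Cdkn1a, on chromosome 17 (29090976 to 29100727, plus strand), encodes p21, the CDK inhibitor through which p53 holds cells in G1. In Chow replicates 1 to 5 it stood at 1.70, 1.64, 1.15, 2.54 and 2.85 CPM. In TM5614 replicates 1 to 5 it stood at 4.31, 17.5, 12, 11.8 and 8.52 CPM. The lowest TM5614 library, replicate 1, was above the highest Chow library, replicate 5, and the highest was TM5614 replicate 2. The means were 1.97 ± 0.699 CPM (SD, n = 5) and 10.8 ± 4.87 CPM (SD, n = 5), and the log2 fold change was 2.46 ± 0.36 (SE), the 27th of 11092 genes by size. Without TM5614 replicate 2 the mean of that group was 9.16 ± 3.61 CPM (SD, n = 4), and the log2 fold change was 2.22. The Chow values rest on 11 to 31 counts per library and the TM5614 values on 30 to 135 counts. Of the 3553 exonic bases of Cdkn1a, 273 overlap a transcript named AC167363.2 on the other strand.

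Cdkn1b, on chromosome 6 (134920401 to 134925513, plus strand), encodes p27, a CDK inhibitor that acts in resting cells. It had 25.1, 22.1, 26.5, 21.6 and 21.3 CPM in Chow replicates 1 to 5 and 30.2, 37.9, 30.0, 26.2 and 24.3 CPM in TM5614 replicates 1 to 5. TM5614 replicates 1, 2 and 3 lay above every Chow library, and replicates 4 and 5 lay within the Chow range. The log2 fold change was 0.35 ± 0.14 (SE) and missed the threshold, and it was 0.22 without Chow replicate 2 and TM5614 replicate 2 together. With the trend on GC content and gene length removed, Cdkn1b in Chow replicate 2 was 31.2 CPM. That was above TM5614 replicates 1 and 3, at 29.8 and 26.8 CPM, but below TM5614 replicate 2, at 38 CPM. The log2 fold change with this correction was 0.19. Both CDK inhibitor genes were thus higher on average, but by different amounts, and the ratio of Cdkn1a to Cdkn1b in CPM was 0.0433 to 0.134 in Chow mice and 0.143 to 0.462 in TM5614 mice. Ccnd1, on chromosome 7 (144929931 to 144939925, minus strand), encodes cyclin D1, the partner of CDK4 and CDK6 that drives entry into the cycle. Its range of 7.03 to 16.4 CPM in the Chow group enclosed that of the TM5614 group, 8.11 to 15 CPM, and its log2 fold change was -0.25 ± 0.24 (SE). This was -0.42 without Chow replicate 1 and -0.16 without Chow replicate 2. Leaving out TM5614 replicate 4 gave -0.15 and leaving out TM5614 replicate 5 gave -0.38. Of its 4709 exonic bases, 1100 overlap those of LTO1 on the other strand.

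**Figure D3:**
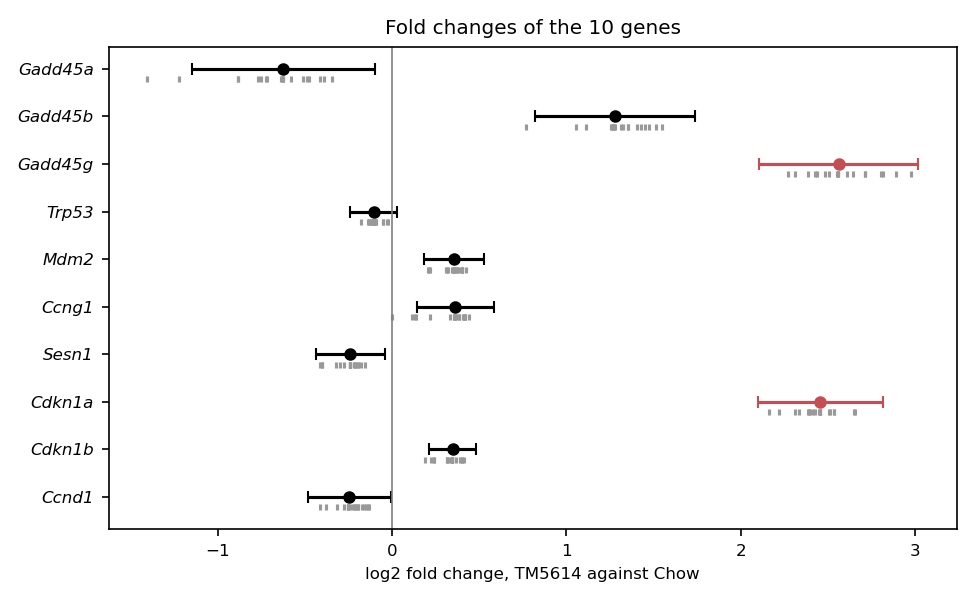
Log2 fold change of the 10 genes, TM5614 against Chow, from the edgeR fit across all genes, with bars of 1 standard error. Red points passed an adjusted p of 0.05, black points did not, and the grey ticks under each point are the same value under each of 19 other ways of processing the counts. The ticks of Gadd45g and Cdkn1a lie between 2.16 and 2.98, and those of Gadd45a are spread from -1.41 to -0.34.

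The genes also differed in how far mice of 1 group varied. The biological coefficient of variation (BCV), the spread between libraries of a group beyond counting error as edgeR estimates it per gene, had a median of 20.0% over all genes tested. It was 56.9% for Gadd45a, 49.0% for Gadd45b and 48.6% for Gadd45g. The share of tested genes with a lower value was 99.2% for Gadd45a and 98.4% for each of the others, so all 3 Gadd45 genes lay among the most variable genes of this tissue. Cdkn1a followed at 35.6%, above 93.4% of genes. Trp53 and Cdkn1b were steady, at 15% and 15.9%, and Mdm2, Sesn1, Ccng1 and Ccnd1 lay between 19.8% and 25.9%. The spread of Gadd45g was not the same in both groups, with a coefficient of variation of CPM of 74.5% in Chow mice and 32.7% in TM5614 mice. That of Gadd45a was 44.5% and 85.5%. Counting alone would give coefficients of 13.0% and 5.53% for Gadd45g and of 10.2% and 12.9% for Gadd45a, and these differences in spread were not tested.

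**Figure D4:**
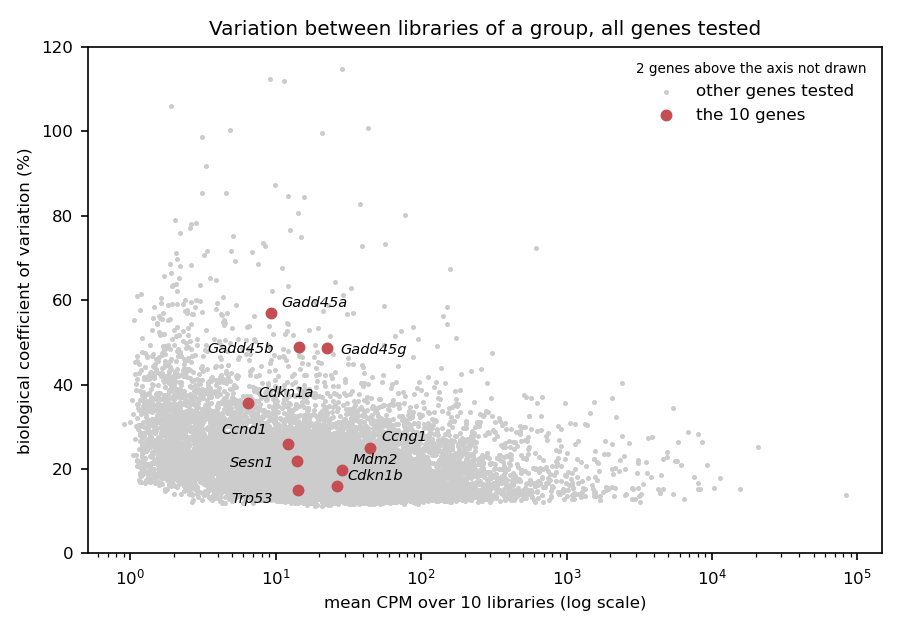
Biological coefficient of variation in percent against mean CPM over the 10 libraries (log scale) for each gene tested, with the 10 genes in red. The 3 Gadd45 genes lie at 48.6% to 56.9%, far above the median of 20.0%, and Trp53 and Cdkn1b lie below it.

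In the Chow group the order of the genes by FPKM was Ccng1 (11.1 ± 2.52), Cdkn1b (9.58 ± 0.992), Gadd45a (9.11 ± 4.04), Mdm2 (7.98 ± 1.87), Trp53 (7.77 ± 1.00), Gadd45b (6.66 ± 3.83), Gadd45g (6.05 ± 4.49), Sesn1 (4.48 ± 1.11), Ccnd1 (3.45 ± 1.00) and Cdkn1a (0.962 ± 0.338; SD, n = 5 for each). All neighbours in this order overlapped in their ranges except the last pair, so the low level of Cdkn1a was the one step beyond the spread of the libraries. In the TM5614 group Gadd45g had the highest FPKM of the 10, at 35.4 ± 11.4 (SD, n = 5), and Gadd45b the next, at 16.1 ± 10.9. Cdkn1a, at 5.26 ± 2.33, was in place 8 of 10, above Sesn1 and Ccnd1. The order among close neighbours depended on the gene length used. With CPM divided by the length of all annotated exons in its place, only Ccng1, Ccnd1 and Cdkn1a kept their place in the Chow group, and Gadd45g moved from place 7 to place 3.

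Genes with a pattern like that of Gadd45g and Cdkn1a were sought among 8597 tested genes with a mean of at least 50 counts, by the root mean square difference in log2 CPM, relative to the Chow mean of each gene, over the 10 libraries. The gene nearest to Gadd45g was Cdkn1a, at a difference of 0.729, followed by Cntnap1 (0.779), Cidec (0.896), Arntl (0.934) and Tor3a (0.990). Nearest to Cdkn1a were Hspb1 (0.597), Cidec (0.597), Tor3a (0.670), St5 (0.672) and Tubb2a (0.688). Cidec encodes a lipid droplet protein, Hspb1 a small heat shock protein and Arntl the clock factor BMAL1. Without TM5614 replicate 2, 3 of the 5 genes nearest to Gadd45g stayed in its list (Cntnap1, Cdkn1a and Cidec), and 1 of the 5 nearest to Cdkn1a did (Cidec). These genes are alike in pattern only, and a difference between the groups is a large part of each pattern. The cut at a mean of 50 counts was taken over both groups. Cdkn1a (mean 54.5 counts, but 11 to 31 per Chow library) passed it only through its higher TM5614 counts. So did Arntl (mean 53.7 counts, at 1.68 CPM in Chow and 11.3 CPM in TM5614 mice). A gene this low in Chow mice could enter the search only if it was higher with TM5614.

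Other genes of the same pathways were then counted in 9 lists, with 108 of 145 genes tested. Over all 11092 genes tested, 4.50% passed the threshold in edgeR, and 2263 genes had an unadjusted p under 0.05 in edgeR. At a share of 4.50%, most lists of this size would hold few calls or none. The genes of p53 signalling in these lists, which leave out Cdkn1a and the rest of the 10, gave no calls in edgeR with all libraries and no block. Without Chow replicate 2, where 1031 of all genes passed, edgeR called 1 other p53 target, higher, and 1 p53 regulator or relative, lower. With the replicate block it called 1 other p53 target, higher. Of 22 other p53 target genes tested, among them Bax, Bbc3, Zmat3 and Sesn2, 0 passed the threshold in edgeR (3 at an unadjusted p under 0.05). In DESeq2 0 passed, and in limma-voom 2, each higher. Their median log2 fold change was 0.11, beside 0.01 over all genes, with 15 estimates above 0 and 7 below. They ran from -0.43 for Bax, which promotes apoptosis, to 0.81 for Trp53inp1, a stress-induced p53 cofactor. Of 12 genes for p53 regulators and relatives, 0 passed in edgeR (1 at an unadjusted p under 0.05), 0 in DESeq2 and 1 in limma-voom. Their median was 0.10, with 10 estimates above 0 and 2 below. Of 3 other CDK inhibitor genes tested, 0 passed in edgeR (1 at an unadjusted p under 0.05) and 0 in both other tools, and the estimates ran from -0.70 for Cdkn1c to -0.11 for Cdkn2c.

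Outside the clock genes, 2 of the 91 other list genes tested (2.2%) passed in edgeR, beside 4.50% of all genes. A count this small does not set the lists apart from that share. Both belong to the p38 and JNK cascade, of which 10 genes were tested, both were lower in the TM5614 group, and both encode kinases that activate p38. DESeq2 and limma-voom called 3 genes of this list each. Map2k6 (MKK6) had 16.4, 9.07, 14.6, 15.5 and 17.4 CPM in Chow replicates 1 to 5 and 6.32, 5.58, 2.98, 5.03 and 8.21 CPM in TM5614 replicates 1 to 5. The groups did not overlap, and the difference on the log2 scale was -1.37 ± 0.25 (SE), at an adjusted p of 0.00868 in edgeR. Map2k3 (MKK3) fell from 73.0 ± 13.4 CPM (SD, n = 5) to 50.3 ± 2.24 CPM (SD, n = 5), a log2 difference of -0.54 ± 0.13 (SE), at an adjusted p of 0.0369 in edgeR. Map2k6 passed under all 19 other ways of processing, with values of -1.56 to -1.21, and Map2k3 under 8 of the 19. Map2k3 missed the threshold when any 1 of Chow replicates 3 to 5 or any 1 TM5614 library was left out. Map3k4, which encodes MEKK4, the kinase that Gadd45 proteins bind, had 20.9 ± 0.466 CPM and 16.2 ± 1.15 CPM (SD, n = 5 each). These groups did not overlap either, but the log2 fold change of -0.37 ± 0.10 (SE) had an edgeR adjusted p of 0.0613. The median of the list was -0.02.

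Genes that carry out the cycle gave no calls in edgeR with all libraries and no block. In the list of G1 cyclins, CDKs, Rb and E2F proteins, edgeR called 1 gene, higher, without Chow replicate 2 and without TM5614 replicate 2. It also called 1, higher, without both and with the replicate block, and 1, lower, without Chow replicate 1. Of 14 genes for G1 cyclins, CDKs, Rb and E2F proteins, 0 passed (3 at an unadjusted p under 0.05), although 2 did in DESeq2 and 3 in limma-voom. E2f1, an activator of S phase genes, had 2.84 ± 0.907 CPM and 1.39 ± 0.354 CPM, and E2f8, a repressor, had 2.07 ± 0.708 CPM and 4.56 ± 1.78 CPM (Chow and TM5614, SD, n = 5 each). Their edgeR adjusted p-values were 0.0656 and 0.0796. Of 24 genes of S phase and mitosis, 13 had too few counts to test, Mki67 and Top2a among them, and of the 11 tested 0 passed in edgeR (2 at an unadjusted p under 0.05) and 0 in both other tools. Their summed level was 54.0 to 64.7 CPM in Chow mice and 54.6 to 62.9 CPM in TM5614 mice. Of 8 FoxO genes and growth-arrest targets, 0 passed in edgeR (2 at an unadjusted p under 0.05), 1 in DESeq2 and 2 in limma-voom. The closest was Ccng2, the cyclin G2 gene, with 10.8 ± 3.28 CPM and 17.5 ± 1.22 CPM (SD, n = 5 each) and an edgeR adjusted p of 0.0774. Of 11 immediate early genes, 0 passed in edgeR and 1 each by an unadjusted p under 0.05, DESeq2 and limma-voom, with a median log2 fold change of -0.18.

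**Figure D5:**
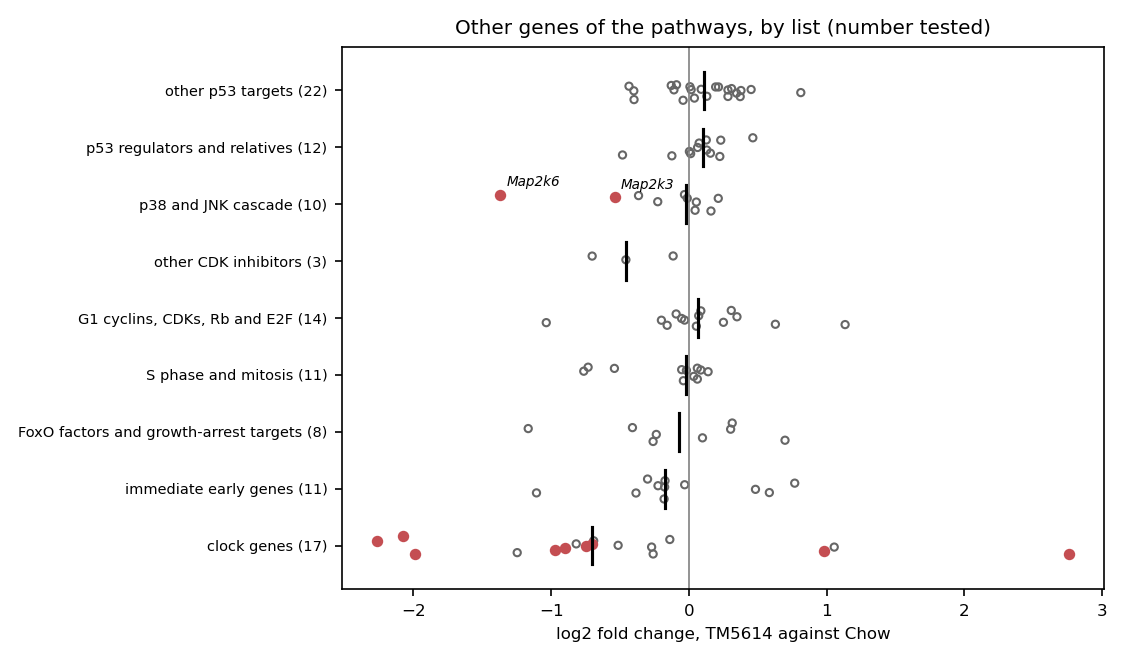
Log2 fold change, TM5614 against Chow, of each tested gene of the 9 other lists, 1 list per line with the number tested in brackets and a black bar at the median of each. Red points passed an edgeR adjusted p of 0.05. These are 9 clock genes and also Map2k3 and Map2k6, which encode kinases that activate p38.

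Clock genes moved with the groups. Of 17 tested, 9 passed the threshold in edgeR, 2 of them higher and 7 lower in the TM5614 group, beside 4.50% of all genes tested. In DESeq2 13 passed and in limma-voom 14, and without Chow replicate 2 edgeR called 3 higher and 11 lower. Arntl was higher by a log2 fold change of 2.76 (edgeR adjusted p = 0.00659) and Clock by 0.98 (edgeR adjusted p = 0.00899), and these encode the activators that bind E-boxes. The largest falls were those of Per3 (-2.27, edgeR adjusted p = 0.00195), Ciart (-2.08, edgeR adjusted p = 0.00601) and Dbp (-1.99, edgeR adjusted p = 0.00179). The time of day at which the livers were taken is not given in the labels. The part of clock phase in the levels of Gadd45g and Cdkn1a was not tested.

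Markers of the other cell types of the liver were counted too. All 11 Kupffer cell and macrophage markers had estimates below 0, with a median log2 fold change of -0.40, but 0 passed in edgeR, at an unadjusted p under 0.05, in DESeq2 or in limma-voom. Their summed level was 84.7 to 271 CPM in Chow mice and 85.2 to 181 CPM in TM5614 mice. Of 10 stellate cell markers 0 passed in edgeR (2 at an unadjusted p under 0.05), 0 in DESeq2 and 1 in limma-voom. Their summed level reached 579 CPM in TM5614 replicate 2, where Des, which muscle also makes, was at 258 CPM. Of the 9 hepatocyte markers 0 passed in edgeR and 1 each at an unadjusted p under 0.05, in DESeq2 and in limma-voom. Of the 10 endothelial markers 0 passed in edgeR (2 at an unadjusted p under 0.05) and 0 in both other tools. The 4 cholangiocyte, 1 lymphocyte and 1 erythroid markers tested gave 0 calls in all 3 tools and 0 at an unadjusted p under 0.05. The part of cell make-up in the levels of the 10 genes was not tested.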

How the data were processed

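The sample titles gave the groups and replicate numbers. The authors sequenced poly(A) libraries as single-end reads, aligned them with STAR to mm10 and deposited whole-number counts per gene symbol, not normalized. They also deposited FPKM, counts scaled by gene length and library, which were used here only for levels between genes. The annotation, the versions and whether counting used strand are not given in the sources used here. Tables of regularised log values and of the authors' own DESeq2 comparison (fold changes and p-values) were not used.

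Counts were filtered with filterByExpr, scaled with TMM and compared by the two-sided quasi-likelihood test of edgeR 4.0.16 (glmQLFTest), without a block and with Benjamini-Hochberg adjustment over 11092 genes (threshold 0.05), in R 4.3.3. DESeq2 1.42.0, which the study used, and limma 3.58.1 (voom with sample quality weights) were alternatives, beside other scalings, filters, a correction for GC content and length (a spline of 5 degrees of freedom each) and left-out libraries. Log2 CPM had a prior count of 2. No pair of libraries of a group agreed within sampling noise (lowest chi-square per degree of freedom 7.98). The p-values weigh the difference between the groups against the spread between libraries of a group. Each mouse was 1 library, so in that spread mice and library preparation cannot be told apart. Depth was 6398335 to 10874955 counts, and the error of a low gene such as Cdkn1a is in part counting error.

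The 10 genes and the lists were chosen with earlier results of these data known, so no p-value is given for the 10 genes. Those printed for list genes are adjusted over all genes tested. They describe single genes and test nothing about a list. The rule for named genes took the 10 genes, list genes past the threshold (up to 6 a list, by size) and the 5 genes nearest in pattern to each called gene. 1 gene that the rule takes is not reported here. Other list genes named, such as Trp53inp1, Map3k4, E2f1, E2f8 and Ccng2, were chosen after their values were seen. Coordinates came from GENCODE M21 on GRCm38.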

Additional observations from a re-analysis of the deposited data

Results flagged for a closer look

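Of 20 groups of 5 libraries (the 10 genes in Chow and in TM5614), 6 held 1 library far from the others by Dixon's criterion (gap over range above 0.71). Chance gives about 1 for independent groups, but these groups share the same 10 libraries. The 6 can therefore not be read as an excess over chance. For 3 of the 6 the library was Chow replicate 2, the library with the strong trend on GC content and length. Mdm2 was 15 CPM there, with the next Chow library at 25.7 CPM, Ccng1 was 23.7 CPM with the next at 40.6 CPM, and Sesn1 was 8.49 CPM with the next at 16.3 CPM. With that trend removed, Ccng1 in this library was 42.4 CPM, but Mdm2 was 16.2 CPM and Sesn1 10.4 CPM. Ccng1 was also high in TM5614 replicate 2, the library with muscle transcripts, at 79.3 CPM with the next at 47.4 CPM. Gadd45b was 44.9 CPM in TM5614 replicate 4 with the next library at 17.9 CPM, and Trp53 was 18.1 CPM in Chow replicate 4 with the next at 14.6 CPM.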

How the results depend on the processing

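Gadd45g and Cdkn1a passed the threshold in all 19 alternatives, and none of the 10 genes changed sign in any. The log2 fold changes of Gadd45g were 2.27 to 2.98 and those of Cdkn1a 2.16 to 2.65. Of the 10 genes 2 passed in each alternative except 2, with 3 under limma-voom (Sesn1, lower) and 3 with the replicate block (Gadd45b, higher). With each library left out in turn the count stayed at 2. Over all genes, 499 passed in edgeR, 900 in DESeq2, 1386 in limma-voom and 1230 without Chow replicate 2 and TM5614 replicate 2 together. Leaving out 1 library gave 235 to 1031. The count moved most for Chow replicate 2 (1031 when left out) and Chow replicate 3 (293), and for replicates 1 (331), 3 (235) and 4 (259) of TM5614. Of the genes of the 9 other lists, 11 passed in edgeR, 20 in DESeq2, 26 in limma-voom, 21 without both of those libraries, and 8 to 22 with 1 left out (22 without Chow replicate 2). By CPM per kilobase of exon, 3 of the 10 genes kept their place in the order of levels. The cause of these shifts was not tested. Replicate numbers are not stated to pair mice. The deviations of same-numbered libraries correlated at 0.0316 to 0.318, and 1 of 5 Chow libraries correlated best with its own number. With the replicate block 555 genes passed, 3 of the 10 and 15 of the other lists. Low counts limit Cdkn1a in the Chow group most, at 11 to 31 counts.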
